A study of Mus musculus with 12 samples.

Results

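The genes described here are 10 immediate early genes: the zinc finger factors Egr1, Egr2 and Egr3, the orphan nuclear receptors Nr4a1, Nr4a2 and Nr4a3, and the response and feedback genes Ier2, Ier3, Zfp36 and Dusp1. They were looked up by symbol, as the rows of the deposited gene table whose Ensembl ID carries that symbol in GENCODE M21. All 10 of 10 were found among 40384 rows. The set was chosen with earlier results of these data known. Polyadenylated RNA was sequenced from 12 mouse libraries in 4 groups of 3. The iPSC group holds induced pluripotent stem cells. The D4_DUX group holds 4F2A cells at day 4 of reprogramming with the treatment OE-DUX, with Dux overexpressed for 48 h. The D4 group holds the same cells at day 4 with the treatment OE-NC, its overexpression control, and the MEF group holds 4F2A embryonic fibroblasts. The labels' protocols give male homozygous 4F2A embryos of mid-gestation as the source of the fibroblasts, which carry doxycycline-inducible Oct4, Sox2, Klf4 and Myc. One culture text, with LIF and 2 μg/mL doxycycline, is given for every sample, the MEF and iPSC groups included. The labels do not say whether the 3 libraries of a group are separate cultures or whether the groups share a fibroblast preparation, so the p-values measure the spread between these libraries, which may be technical.

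Immediate early genes are switched on within minutes of a growth factor, a cytokine or a stress signal, without new protein synthesis. The ERK pathway reaches many of them through serum response factor and its ternary complex partners, and the cAMP and calcium pathways through CREB. Their products include transcription factors and proteins that shut the response down again, either by dephosphorylating the kinases (Dusp1) or by hastening the decay of messages (Zfp36). In fibroblasts the Egr and Nr4a genes are known for their response to serum.

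The library labels were checked first. Duxf3, the annotated Dux gene, was listed at 0 FPKM in the 3 libraries labelled D4_DUX and at no more than 0.00747 FPKM in D4, below the floor of 3 fragments in all 12 libraries. A Dux sequence that was not counted under Duxf3 would not appear there, so the label could not be checked on this table, and directions are those of the libraries labelled D4_DUX. Depth was 22480000 to 28080000 counted fragments per library. The 12 pluripotency markers summed to 1366 to 1521 FPKM in iPSC, 1.61 to 1.88 FPKM in the libraries labelled D4_DUX, 1.56 to 1.93 FPKM in D4 and 0.205 to 0.535 FPKM in MEF. The 12 fibroblast markers summed to 898 to 1165, 3091 to 3168, 3810 to 3958 and 6553 to 6692 FPKM in the same order of groups, so they were lowest but present in iPSC. The 16 macrophage markers summed to 184 to 226 FPKM in iPSC, 51.6 to 53.6 FPKM in the libraries labelled D4_DUX, 201 to 242 FPKM in D4 and 1748 to 1788 FPKM in MEF, and none of the 16 was at 0 in a whole group. The 10 epithelial markers summed to 176 to 193, 28.2 to 29.8, 10.8 to 11.9 and 5.46 to 5.73 FPKM in iPSC, D4_DUX, D4 and MEF, and the 7 endothelial markers to 33.3 to 34, 20.5 to 23, 14.5 to 15.1 and 2.64 to 3.39 FPKM.

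Promoter stretches are shown for the 3 Nr4a genes, Egr2, Zfp36 and Dusp1, whose windows held a motif of the factors named above. None is shown for Egr1, Egr3 and Ier2. Of the 10 genes, 7 had a window on a chromosome used here in the RefSeq promoter table (GRCm38.p6). The stretches below lie before the RefSeq start site and run 5′ to 3′ on the gene's strand. They leave out bases that GENCODE M21 places in an exon, except for Zfp36, whose window lies in an exon of another of its transcripts and of which only 30 bases around the CArG box are shown. Capitals mark matches to the motifs searched on both strands: the CArG box bound by serum response factor, the cAMP response element TGACGTCA, its core TGACG, the EGR site GCGNGGGCG, the Nr4a site AAAGGTCA and the AP-1 site TGANTCA. A match on the opposite strand appears as its reverse complement. The core was added after the sequences had been seen, and a full cAMP response element holds 2 overlapping cores, 1 on each strand.
Nr4a1: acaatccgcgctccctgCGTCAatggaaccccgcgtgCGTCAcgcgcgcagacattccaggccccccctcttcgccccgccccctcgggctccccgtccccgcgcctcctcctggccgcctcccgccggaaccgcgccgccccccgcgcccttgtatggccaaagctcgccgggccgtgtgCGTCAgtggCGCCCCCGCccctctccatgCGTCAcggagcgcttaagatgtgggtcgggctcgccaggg
Nr4a2: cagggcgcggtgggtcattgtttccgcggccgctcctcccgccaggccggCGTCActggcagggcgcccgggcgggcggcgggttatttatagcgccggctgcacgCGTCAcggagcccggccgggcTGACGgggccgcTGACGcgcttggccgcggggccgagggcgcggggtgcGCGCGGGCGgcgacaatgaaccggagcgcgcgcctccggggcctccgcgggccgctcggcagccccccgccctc
Nr4a3: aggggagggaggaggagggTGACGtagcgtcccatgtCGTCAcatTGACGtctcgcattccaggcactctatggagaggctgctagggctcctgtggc
Egr2: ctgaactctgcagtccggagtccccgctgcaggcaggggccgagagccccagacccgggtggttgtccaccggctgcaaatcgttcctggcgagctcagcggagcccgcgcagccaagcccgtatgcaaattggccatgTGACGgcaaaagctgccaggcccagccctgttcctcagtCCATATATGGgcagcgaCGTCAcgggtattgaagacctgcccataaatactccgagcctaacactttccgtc
Zfp36: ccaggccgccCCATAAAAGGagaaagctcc
Dusp1: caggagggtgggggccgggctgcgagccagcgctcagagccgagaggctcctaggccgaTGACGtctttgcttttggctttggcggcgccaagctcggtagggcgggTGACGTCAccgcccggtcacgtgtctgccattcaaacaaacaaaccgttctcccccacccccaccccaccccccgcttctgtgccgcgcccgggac

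These stretches are chr15:101266596-101266845 (Nr4a1, plus strand), chr2:57124004-57124253 (Nr4a2, minus strand), chr4:48045055-48045152 (Nr4a3, plus strand), chr10:67537619-67537868 (Egr2, plus strand, at 1 of its 5 listed starts), chr7:28379267-28379296 (Zfp36, minus strand) and chr17:26508520-26508722 (Dusp1, minus strand). GENCODE M21 begins the Nr4a1 and Dusp1 genes far upstream of these stretches, at 101254269 and 26562128, and those starts were not searched. Each of the 3 Nr4a windows of 250 bases held 4 cores. At least 4 cores stood in 45 of 32851 windows of that length in the table, or 0.137%, and at least 1 in 17.8%. In Nr4a1 the cores began at 233, 213, 69 and 40 bases before the start site, in Nr4a2 at 200, 144, 123 and 111, and in Nr4a3 at 231, 213, 205 and 147, of which the last lies beyond the stretch printed. The Dusp1 window held a complete cAMP response element from 143 to 136 bases before the start, which 1.55% of all windows hold, and another core at 191. A CArG box stood 72 to 63 bases before the start of Egr2 and 58 to 49 bases before that of Zfp36, against 1.47% of all windows. An EGR site was found in Nr4a1 (60 to 52 bases before the start), Nr4a2 (74 to 66) and Zfp36 (105 to 97), against 4.7% of all windows. Neither the Nr4a site nor the AP-1 site matched in any of the 7 genes' windows. The Ier3 window held none of the motifs. Base composition was not matched in these shares, and the stretches printed for the Nr4a genes are 61.2 to 80.0% G and C. A match describes letters and was not tested as a site.

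**Figure D1:**
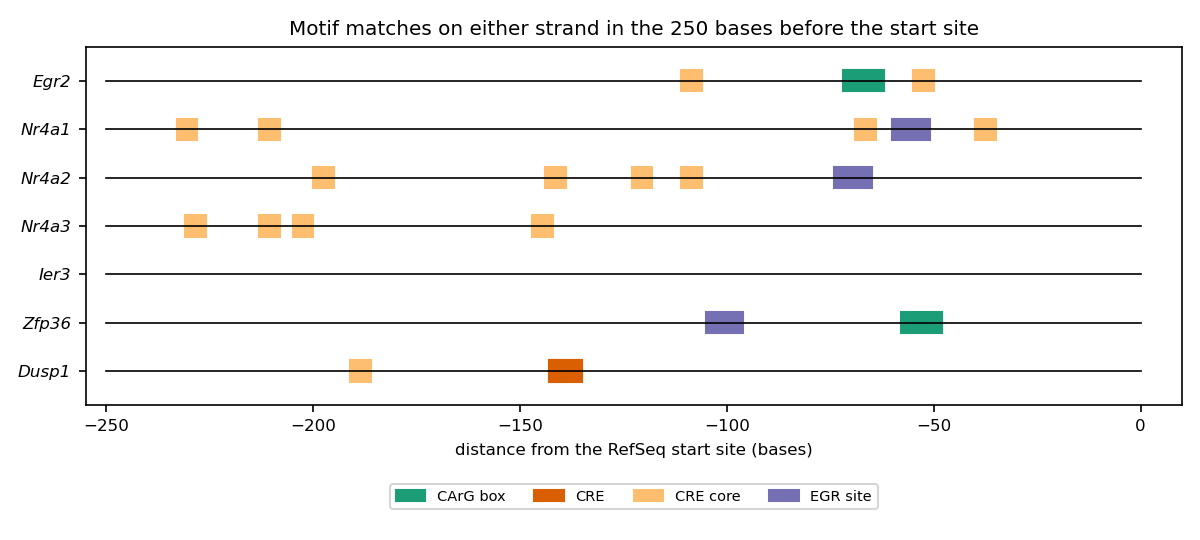
Motif matches on either strand along the 250 bases before the RefSeq start site, in bases from that site, for 7 of the 10 genes. Each of the 3 Nr4a genes carries 4 cores, Dusp1 a complete cAMP response element (CRE), and Egr2 and Zfp36 a CArG box.

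The levels of the 10 genes fell into a few shapes over the 4 groups. Values are FPKM, which is scaled by gene length, and group values are mean ± SD of n = 3 libraries. Egr1, Egr3, Ier3, Zfp36 and Dusp1 had their highest mean in D4. Egr2, Nr4a1, Nr4a2, Nr4a3 and Ier2 had theirs in iPSC. The lowest mean was in MEF for 7 genes, in iPSC for Ier3 and Zfp36, and in the libraries labelled D4_DUX for Egr2. Between libraries of 1 group the coefficient of variation was 1.35 to 12.3%, with a median of 6.17%, over the 30 group means of at least 1 FPKM.

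**Figure D2:**
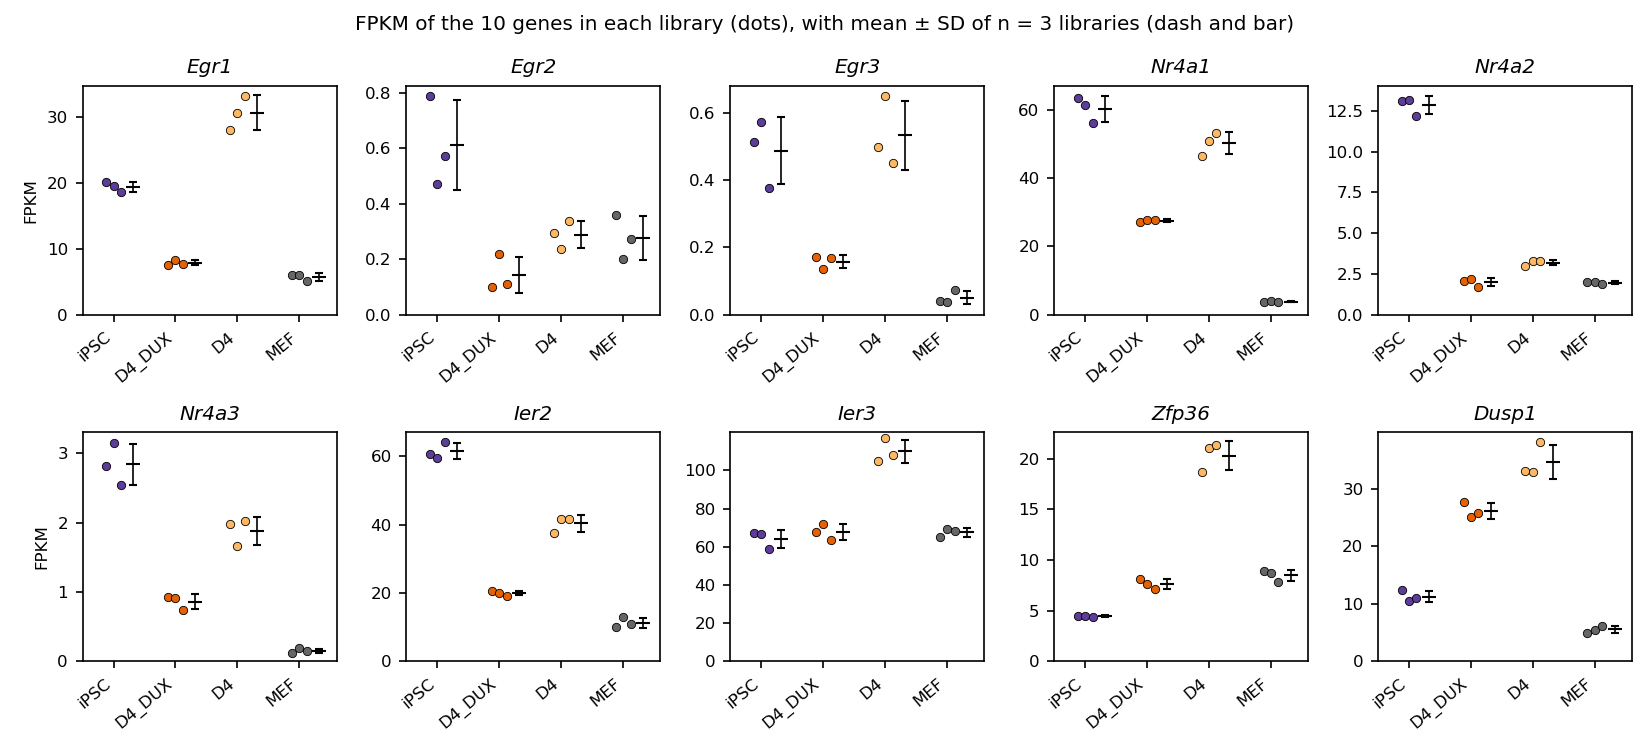
FPKM of each gene (vertical axes, linear and starting at 0) in the 3 libraries of iPSC, D4_DUX, D4 and MEF, with mean ± SD beside the dots. D4 stands above the libraries labelled D4_DUX in every panel, for Egr1 at 30.7 against 7.89 FPKM on average.

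D4_DUX against D4 sets the Dux treatment against its control at day 4. Every one of the 8 genes that could be tested was lower in the libraries labelled D4_DUX. Handling that differed between whole groups, such as the time since a medium change, cannot be told apart from the treatment. It was not tested, here or in the comparisons below. Differences were tested with limma on log2(FPKM + 1), over the 17114 genes that reached 1 FPKM in 3 or more libraries, and called at a Benjamini-Hochberg adjusted p under 0.05. Log2 fold changes carry the SE of that fit and understate the change of genes at low FPKM. Of all genes tested, 35.4% were called, 15.4% lower and 20.1% higher, and the groups did not overlap for 50.5%. Egr2 and Egr3 missed the filter. Nr4a3 passed it only through its D4 and iPSC libraries, so its fall in this comparison was favoured by the filter. The median log2 fold change of the 8 genes was -0.77, against 0.02 for all genes tested. As the set was chosen with earlier results known, setting it beside all genes describes the set and does not test it.

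Egr1 (ENSMUSG00000038418, chromosome 18), the founding member of the Egr factors, was at 7.58, 8.33 and 7.77 FPKM in the libraries labelled D4_DUX, against 28, 30.7 and 33.3 FPKM in D4. The highest D4_DUX library thus lay far below the lowest D4 library. The log2 fold change was -1.83 (SE 0.07, limma adjusted p = 7.33e-08), the lowest but 7 of 17114 genes. Egr3 (ENSMUSG00000033730, chromosome 14, 70077203 to 70082614), a relative that binds the same GC-rich site, moved at a much lower level. It was at 0.171, 0.135 and 0.168 FPKM in the libraries labelled D4_DUX and 0.499, 0.649 and 0.452 FPKM in D4, which is 16 to 20 fragments against 49.4 to 70.9. Fitted with no filter on low values, where 13.9% of 40384 genes were called, its log2 fold change was -0.40 (SE 0.06, limma adjusted p = 0.0014). Egr2 (ENSMUSG00000037868, chromosome 10, 67535475 to 67542188), known for its role in myelinating Schwann cells and the hindbrain, was at 0.0996, 0.219 and 0.111 FPKM in the libraries labelled D4_DUX and 0.294, 0.237 and 0.337 FPKM in D4. These values did not overlap, yet they rest on 9 to 28.5 fragments, and the difference of -0.17 (95% interval -0.35 to 0) did not pass in the same unfiltered fit (limma adjusted p = 0.208).

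The 3 Nr4a receptors, which bind DNA without a classical ligand and are controlled mainly by how much of them is made, all fell. Nr4a1 (ENSMUSG00000023034, chromosome 15, 101254269 to 101274795) was at 27.1, 27.8 and 27.6 FPKM in the libraries labelled D4_DUX, against 46.5, 50.9 and 53.1 FPKM in D4 (log2 fold change -0.84, SE 0.05, limma adjusted p = 1.23e-06). Nr4a2 (ENSMUSG00000026826, chromosome 2, 57106830 to 57124003), needed for midbrain dopamine neurons, was at 2.09, 2.18 and 1.72 FPKM against 3.01, 3.3 and 3.28 FPKM in D4 (-0.49, SE 0.06, limma adjusted p = 0.000151). Nr4a3 (ENSMUSG00000028341, chromosome 4, 48045153 to 48086447) was at 0.92, 0.917 and 0.736 FPKM in the libraries labelled D4_DUX, against 1.98, 1.66 and 2.02 FPKM in D4 (-0.63, SE 0.07, limma adjusted p = 7.7e-05). The groups did not overlap for any of the 3, and the ratio of mean FPKM was 0.548 for Nr4a1, 0.625 for Nr4a2 and 0.455 for Nr4a3. With voom on recovered fragments, which adds less to low values, the log2 fold change of Nr4a3 was -1.13.

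Among the feedback genes the size of the fall differed. Zfp36 (ENSMUSG00000044786, chromosome 7, 28376784 to 28380253) encodes tristetraprolin, which binds AU-rich elements and speeds the decay of cytokine messages. It was at 8.08, 7.58 and 7.16 FPKM in the libraries labelled D4_DUX, against 18.7, 21 and 21.3 FPKM in D4 (log2 fold change -1.31, SE 0.06, limma adjusted p = 1.6e-07). The antisense gene Gm44710 shares 125 exon bases with Zfp36, and without a stated strand setting reads of the overlap cannot be told apart. Its own values overlapped, at 11 to 12.1 FPKM in the libraries labelled D4_DUX and 11.1 to 13 FPKM in D4. Ier2 (ENSMUSG00000053560, chromosome 8, 84661331 to 84662852), a nuclear protein of the early response, was at 20.5, 20 and 19.2 FPKM against 37.5, 41.8 and 41.8 FPKM in D4 (-0.98, SE 0.07, limma adjusted p = 3.48e-06). Ier3 (ENSMUSG00000003541, chromosome 17, 35821684 to 35822923), which bears on cell survival and ERK signalling, was the most abundant of the 10 genes in both groups. It was at 67.7, 71.9 and 63.4 FPKM in the libraries labelled D4_DUX, against 105, 117 and 108 FPKM in D4 (-0.69, SE 0.06, limma adjusted p = 1.41e-05). Dusp1 (ENSMUSG00000024190, chromosome 17, 26505590 to 26562128), the nuclear phosphatase that switches off p38, JNK and ERK, changed least. It was at 27.6, 25 and 25.8 FPKM in the libraries labelled D4_DUX, against 33, 32.9 and 38.1 FPKM in D4 (-0.39, SE 0.08, limma adjusted p = 0.00368). The 2 groups still did not overlap.

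All 16 macrophage markers were called lower in the same comparison, with a median log2 fold change of -1.31, while 7 of 12 fibroblast markers were lower and 1 higher, with a median of -0.39, and 5 of 9 epithelial markers were higher and 0 lower. The part of these cell types in the result was not tested. In bulk RNA, fewer cells of a type and less RNA per cell cannot be told apart.

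In D4 against MEF, which sets day 4 of reprogramming against fibroblasts, the same 8 genes were all higher in D4, where 61.8% of all genes tested were called, 34.2% higher, and 66.5% had groups without overlap. Both comparisons share the D4 libraries, so the lower values above and the higher values here are not separate evidence. Nr4a1 was at 46.5, 50.9 and 53.1 FPKM in D4, against 3.69, 3.99 and 3.84 FPKM in MEF, a log2 fold change of 3.40 (SE 0.05, limma adjusted p = 8.95e-13) that ranked 58 from the top of 17114 genes. Dusp1 stood at 32.9 to 38.1 FPKM in D4 and 4.95, 5.5 and 6.19 FPKM in MEF (2.45, SE 0.08, limma adjusted p = 3.95e-10). In GENCODE M21 its gene model reaches into Ergic1, with 11 shared exon bases of 3311, and Ergic1 was at 34.9 ± 0.779 FPKM in D4 and 18.4 ± 0.411 FPKM in MEF.

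Egr1 was at 28 to 33.3 FPKM in D4 and 6.09, 6.09 and 5.05 FPKM in MEF, a log2 fold change of 2.23 (SE 0.07, limma adjusted p = 3.2e-10). Ier2 was at 37.5 to 41.8 FPKM in D4, against 10.1, 12.8 and 10.8 FPKM in MEF (1.76). The differences in both genes were several times the spread within either group. Nr4a3 averaged 1.88 ± 0.196 FPKM in D4 and 0.147 ± 0.0353 FPKM in MEF, where it rested on 15.5 to 26.1 fragments, a log2 fold change of 1.33 on this scale and 3.66 with voom on recovered fragments. Its call was again favoured by the filter, which it passed through D4 and iPSC. Zfp36 was at 18.7 to 21.3 FPKM in D4, against 8.86, 8.69 and 7.82 FPKM in MEF (1.17). Ier3 and Nr4a2 moved least, at 110 ± 6.1 and 67.5 ± 2.27 FPKM for Ier3 in D4 and MEF (0.70) and 3.2 ± 0.164 and 1.97 ± 0.066 FPKM for Nr4a2 (0.50). Limma adjusted p was between 2.43e-08 and 2.68e-05 for Nr4a3, Ier3 and Nr4a2. Egr3 averaged 0.533 ± 0.103 FPKM in D4 and 0.0505 ± 0.0191 FPKM in MEF, where it had 4 to 9 fragments, and was higher in D4 in the unfiltered fit (limma adjusted p = 4.06e-05, with 29.9% of genes called). Egr2 overlapped between the groups, at 0.289 ± 0.0502 FPKM in D4 and 0.277 ± 0.0794 FPKM in MEF (limma adjusted p = 1, 95% interval of the log2 difference -0.16 to 0.19). Here too all 16 macrophage markers were lower in D4, with a median log2 fold change of -2.06, and 8 of 12 fibroblast markers were lower and 3 higher.

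**Figure D3:**
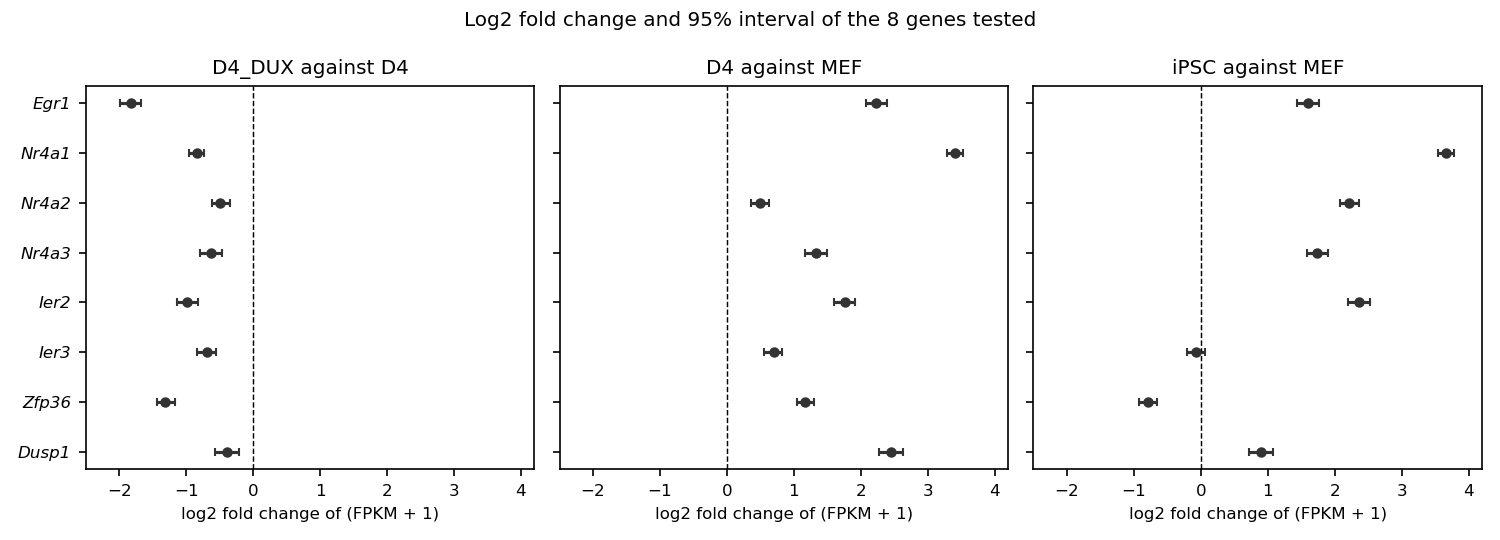
Log2 fold change of FPKM + 1 (horizontal axis) with its 95% interval for the 8 genes tested, in the comparisons of D4_DUX with D4, of D4 with MEF and of iPSC with MEF. All 8 lie below 0 in the first comparison and above 0 in the second, and in the third Zfp36 lies below 0 and the interval of Ier3 includes it.

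The libraries labelled D4_DUX were also set against MEF, to place the lower day 4 level. Of the 8 genes, 5 were higher than in MEF and 0 lower, where 39.0% of all genes were called higher, 26.8% lower and 71.4% had groups without overlap. Nr4a1 averaged 27.5 ± 0.37 FPKM in the libraries labelled D4_DUX and 3.84 ± 0.146 FPKM in MEF (log2 fold change 2.56, limma adjusted p = 6.32e-12), and Dusp1 26.1 ± 1.36 and 5.54 ± 0.623 FPKM (2.06, limma adjusted p = 1.15e-09). Ier2, Nr4a3 and Egr1 were higher by 0.78, 0.69 and 0.40, with 2.54 for Nr4a3 by voom on recovered fragments. For the remaining 3 genes the ranges overlapped and no call was made. The difference was 0.00 for Ier3 (95% interval -0.13 to 0.14), 0.01 for Nr4a2 (-0.13 to 0.14) and -0.13 for Zfp36 (-0.27 to 0, limma adjusted p = 0.0676). The last was called lower with median-ratio scaling, with quantile normalization, without D4_DUX replicate 1 and without MEF replicate 3 (-0.17 to -0.23, limma adjusted p = 0.00679 to 0.0383).

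In iPSC against MEF the family divided. Of the 8 genes, 6 were higher in iPSC and 1 lower, while 82.2% of all genes were called, 51.0% higher and 31.2% lower, and 82.4% had groups without overlap, so these counts are close to the background. The 3 Nr4a receptors and Ier2 rose most. Nr4a1 was at 63.3, 61.2 and 56.1 FPKM in iPSC and 3.69 to 3.99 FPKM in MEF (log2 fold change 3.66, SE 0.05, limma adjusted p = 1.44e-13). Ier2 was at 60.7, 59.6 and 64.3 FPKM in iPSC and 10.1 to 12.8 FPKM in MEF (2.36, limma adjusted p = 4.55e-11). Nr4a2 was at 13.1, 13.2 and 12.2 FPKM in iPSC and 1.9 to 2.03 FPKM in MEF (2.22, limma adjusted p = 2.01e-11), and Nr4a3 at 2.82, 3.15 and 2.55 FPKM in iPSC and 0.115 to 0.185 FPKM in MEF (1.74, limma adjusted p = 6.25e-10). The call of Nr4a3 was favoured here too by a filter it passed through iPSC and D4.

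Egr1 (20.1, 19.6 and 18.6 FPKM in iPSC, 5.05 to 6.09 FPKM in MEF) and Dusp1 (12.3, 10.4 and 10.9 FPKM in iPSC, 4.95 to 6.19 FPKM in MEF) rose by 1.60 and 0.90 on the log2 scale. Egr2 averaged 0.611 ± 0.163 FPKM in iPSC and 0.277 ± 0.0794 FPKM in MEF, and Egr3 0.488 ± 0.101 and 0.0505 ± 0.0191 FPKM. Both were higher in iPSC in the unfiltered fit (limma adjusted p = 0.00452 and 3.21e-05, with 49.7% of genes called). Zfp36 went the other way, at 4.49, 4.49 and 4.36 FPKM in iPSC and 7.82 to 8.86 FPKM in MEF (-0.79, SE 0.06, limma adjusted p = 1.3e-07). Ier3 overlapped, at 67.3, 66.6 and 58.8 FPKM in iPSC and 64.9, 69.1 and 68.4 FPKM in MEF (-0.07, 95% interval -0.21 to 0.06, limma adjusted p = 0.299). The median log2 fold change of all genes was 0.21 here, 0.04 with median-ratio scaling and -0.07 with quantile normalization, and the share of calls that were higher was 62.1, 52.3 and 46.6%. Under those 2 scalings Ier3 was called lower in iPSC, with -0.30 and -0.21 (limma adjusted p = 0.000644 and 0.00749), and the other 7 genes kept their direction and their call. With voom on recovered fragments the change of Nr4a3 was 4.25. The fibroblast markers were lower in iPSC for 11 of 12 genes and the macrophage markers for 15 of 16.

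In iPSC against D4, 4 of the 8 genes were higher and 4 lower, where 82.4% of all genes were called, 48.5% higher in iPSC and 33.9% lower, so the split is near the background. The share of calls that were higher was 58.8%, and 46.7% with quantile normalization. Nr4a2 was higher in iPSC by 1.72 on the log2 scale (12.9 ± 0.553 FPKM, against 3.2 ± 0.164 FPKM in D4) and Ier2 by 0.60 (61.6 ± 2.46 and 40.4 ± 2.5 FPKM). Zfp36 and Dusp1 were lower in iPSC, with log2 fold changes of -1.97 and -1.55. Zfp36 averaged 4.45 ± 0.078 FPKM in iPSC and 20.3 ± 1.41 FPKM in D4, and Dusp1 11.2 ± 0.965 and 34.7 ± 2.95 FPKM. Ier3 and Egr1 followed with -0.77 and -0.63. Limma adjusted p was 9.9e-06 or smaller for these 6 genes. Nr4a1 (0.26) and Nr4a3 (0.41) were higher in iPSC by small amounts. Those calls ended with median-ratio scaling for Nr4a1 (0.10, limma adjusted p = 0.0744) and with quantile normalization for Nr4a3 (0.13, limma adjusted p = 0.114). Egr3 overlapped between iPSC and D4.

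Against the libraries labelled D4_DUX, 5 of the 8 genes were higher in iPSC and 2 lower, where 82.5% of all genes were called, 48.4% higher and 34.1% lower, and 83.8% had groups without overlap. Of those calls 58.6% were higher, and 46.7% with quantile normalization. Nr4a2 (12.9 ± 0.553 FPKM in iPSC and 2 ± 0.241 FPKM in D4_DUX) and Ier2 (61.6 ± 2.46 and 19.9 ± 0.644 FPKM) had log2 fold changes of 2.21 and 1.58. Egr1, Nr4a1 and Nr4a3 had 1.20, 1.10 and 1.05. The call of Nr4a3 was favoured by the filter, which it passed through iPSC and D4, and its change was 1.71 with voom on recovered fragments. Dusp1 and Zfp36 were lower in iPSC, with -1.16 and -0.66. Ier3 overlapped (-0.07, 95% interval -0.21 to 0.06, limma adjusted p = 0.281).

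From the highest to the lowest mean the order was D4, iPSC, D4_DUX, MEF for Egr1, and iPSC, D4, D4_DUX, MEF for Nr4a1, Nr4a3 and Ier2. All neighbours in these 4 orders differed beyond their spread in FPKM as deposited. The call between iPSC and D4 ended with median-ratio scaling for Nr4a1 and with quantile normalization for Nr4a3. Nr4a2 had the second order too, but D4_DUX and MEF overlapped. Dusp1 ran D4, D4_DUX, iPSC, MEF with all neighbours apart. Zfp36 ran D4, MEF, D4_DUX, iPSC, where MEF and D4_DUX overlapped. In Ier3 only D4 stood apart from the other groups, which overlapped. Egr3 had the order of Egr1, with D4 and iPSC overlapping. Its values in D4_DUX and MEF did not overlap, but the unfiltered fit made no call (0.14, limma adjusted p = 0.102). In Egr2 only iPSC stood apart from its neighbour.

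How alike the genes ran was described by Pearson's r of log2(FPKM + 1) over the 12 libraries, which fall into 4 groups and share their depth and scaling, so r mainly reflects group means. Over the 28 pairs of the 8 genes it was -0.52 to 0.99, with a median of 0.56. Nr4a3 and Ier2 were most alike (0.99) and Nr4a2 and Zfp36 least (-0.52), while Ier3 and Zfp36 reached 0.92. After the group means were removed the range was -0.12 to 0.77, with a median of 0.32. For the closest genes, predicted-gene and clone names were left out. Among the other genes tested at a mean of 5 FPKM or more in a group, the closest to Egr1 were Stc1 (0.9716) and Epn2 (0.9692). The closest to Nr4a1 were Cox6b2 (0.9938) and Klf10 (0.9916), and those to Nr4a2 were Ogdhl (0.9959) and Paip2b (0.9948). Nr4a3 was closest to Ier2 (0.9877) and Serpine2 (0.9829), and Ier2 to Pim3 (0.9808) and Olr1 (0.9803). Ggta1 (0.9662) and Cpeb1 (0.9629) were closest to Ier3. Zfp36 was closest to Nfkbia (0.9817), the inhibitor of NF-kB, and Tspan9 (0.9746), and Dusp1 to Hes1 (0.9944), a repressor downstream of Notch, and Cryzl2 (0.9894).

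The genes around this family were read from 7 further lists, in D4_DUX against D4 where 15.4% of genes were called lower. These lists too were chosen with earlier results known, so their counts describe and do not test. Among relatives of the family 3 of 6 tested were lower and 0 higher. They were Zfp36l1, a sister of Zfp36 (69.8 ± 3.26 FPKM in the libraries labelled D4_DUX and 96.5 ± 4.24 FPKM in D4, -0.46), Ier5 (10.9 ± 0.936 and 20.1 ± 0.577 FPKM, -0.83) and Ier5l (-0.34). Of 29 other immediate early genes 18 were lower and 3 higher, with a median of -0.32. The prostaglandin synthase Ptgs2 was at 36, 36.1 and 34.6 FPKM in the libraries labelled D4_DUX, against 78.6, 76.6 and 76.8 FPKM in D4 (-1.10, limma adjusted p = 3.06e-08). The matrix protein Ccn1 and Nfkbia had -1.12 and -0.71. The 3 higher genes, named after their values were seen, were Myc, one of the inducible factors of these cells, Tiparp and Mcl1. Of the AP-1 and serum response factor list 4 of 13 were lower and 2 higher. Fos was at 7.59, 8.66 and 8.01 FPKM in the libraries labelled D4_DUX, against 22, 23.6 and 28.2 FPKM in D4, and Fosb and Junb had -0.59 and -0.63.

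Of 15 other feedback genes of ERK and the related kinases JNK and p38, 7 were lower and 3 higher. The 3 higher genes, named after their values were seen, were Dusp8 (0.58), Dusp16 (0.15) and Spred2 (0.14). Spry1 was at 5.77 ± 0.489 FPKM in the libraries labelled D4_DUX and 11.5 ± 0.0419 FPKM in D4 (-0.89, limma adjusted p = 6.5e-06), Spry2 had -0.51, and Errfi1, an inhibitor of the EGF receptor, had -0.68. The kinases and adaptors of the ERK cascade itself were mixed, 3 of 16 higher and 3 lower with a median of 0.04. Among them were Hras (0.30), Rps6ka1 (-0.41) and Braf (-0.21). Of 13 growth factor receptors 5 were lower and 0 higher. Egfr was at 9.87 ± 0.108 FPKM in the libraries labelled D4_DUX and 14.9 ± 1.2 FPKM in D4 (-0.54), Pdgfra had -0.81 and Fgfr1 -0.27. Of 14 messages known as targets of Zfp36 9 were lower and 1 higher, with a median of -0.79. The lists share genes, so their counts are not separate. Ptgs2, given above, is also on this list, and Pdgfra is also a fibroblast marker. Il1b was at 0.421 ± 0.0378 FPKM in the libraries labelled D4_DUX and 4.77 ± 0.19 FPKM in D4 (-2.02). Ccl3 was at 1.83 ± 0.383 and 13 ± 0.903 FPKM (-2.31). Both are also products of macrophages, whose markers were lower in all 16 cases. The part of macrophages in these values was not tested.

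In D4 against MEF these lists held calls in both directions, apart from the receptors. The other immediate early genes had 14 of 29 higher and 12 lower, and the AP-1 and serum response factor list 6 of 13 and 4. The feedback genes of ERK, JNK and p38 had 9 of 15 higher and 2 lower, and the family relatives 2 of 6 and 2. Over all genes 34.2% were higher and 27.6% lower, so several of these counts lie near the background. Growth factor receptors had 0 of 13 higher and 7 lower, with Pdgfra at 17.5 ± 1.53 FPKM in D4 and 85.2 ± 4.1 FPKM in MEF (-2.22). In iPSC against MEF 10 of the same 15 feedback genes were higher and 3 lower, beside 51.0% and 31.2% of all genes. Errfi1, Spry2 and Spry1 had 1.57, 1.23 and -0.98. Fos was at 3.5 ± 0.269 FPKM in iPSC and 3.32 ± 0.15 FPKM in MEF (0.06, limma adjusted p = 0.535).

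**Figure D4:**
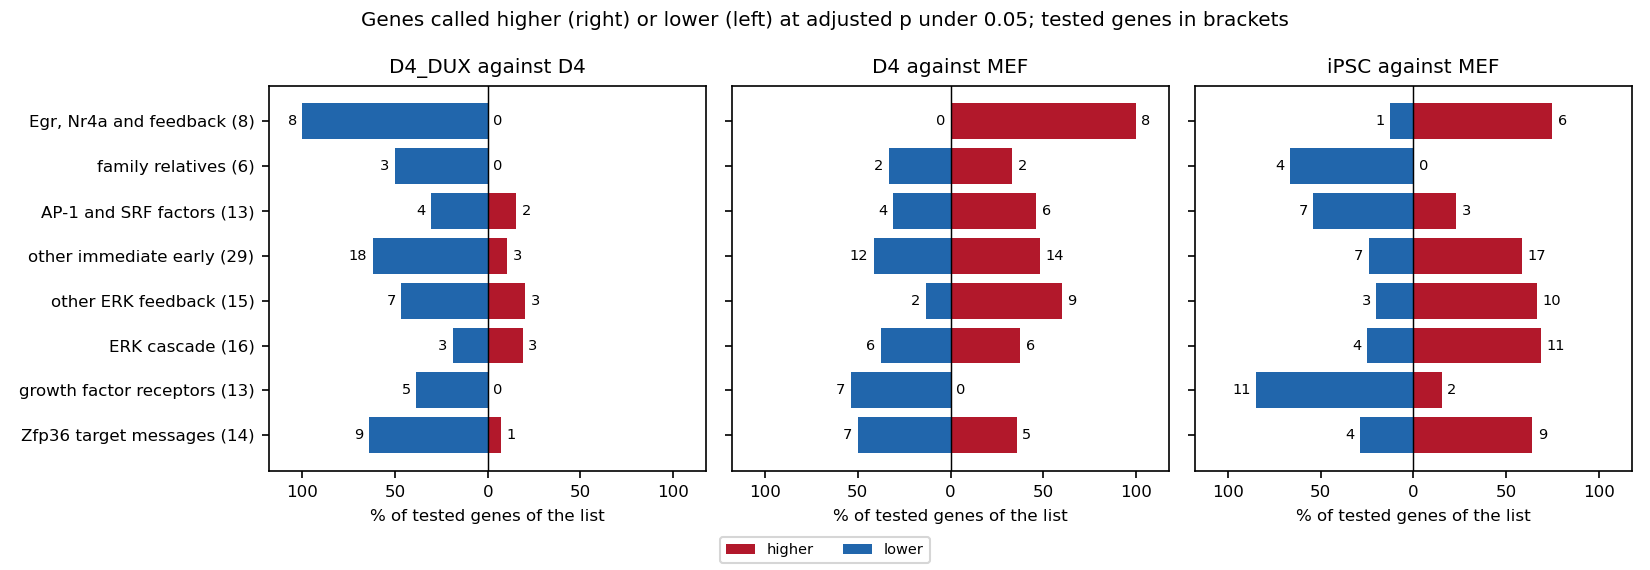
Genes of each list called higher (right) or lower (left), as a percentage of the list's tested genes (horizontal axes), with the counts beside the bars. The row named other ERK feedback also holds feedback genes of JNK and p38. The first row, the genes described here, is lower in 8 of 8 cases in D4_DUX against D4 and higher in 8 of 8 in D4 against MEF; rows with small lists carry few genes.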

How the data were processed

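The authors deposited one table of FPKM (fragments scaled by gene length and library total), with 40384 Ensembl IDs and 1 column for each of 12 libraries. Per the submitters' processing notes the build was mm10. The sources used here do not give the aligner, counter, annotation or strand setting. Per the labels' protocols, stranded poly(A) libraries were read as 150 bp pairs. Symbols and exon lengths came from GENCODE M21 (GRCm38), which matched 99.6% of IDs. FPKM times exon length gave a step per fragment, from which depth and fragments were recovered. Within 0.01 of a step, 45.2 to 48.9% of low values were whole, so fragments are approximate. Floors cover counting error only. Intervals of log2 fold changes come from the SE of the limma fit. Like the p-values, they measure the spread between these libraries, which may be technical.

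A limma model (limma 3.58.1, R 4.3.3) with 4 group means and a trended variance prior was fitted to log2(FPKM + 1) of the 17114 genes that reached 1 FPKM in 3 or more libraries. The code was run on simulated data with independent normal noise, which cannot speak to low counts, scaling or technical replicates. Named genes are the 10 members, up to 3 per list with the smallest adjusted p in D4_DUX against D4, and the 2 most like each member. Members and lists were chosen with earlier results of these data known. Alternatives changed pseudocount, filter, prior, samples, scaling, unit, test or replicates. No label says that a replicate number marks a shared culture, so replicate numbers were not taken as pairs. Their residual correlations were -0.146 to 0.062 between D4_DUX and D4, D4 and MEF, and iPSC and MEF. Residuals around means of 3 libraries cannot settle whether cultures were paired. No pair of columns was identical (0 of 66).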

Additional observations from a re-analysis of the deposited data

How the results depend on the processing

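Over the alternatives run, 7 to 9 of the 10 genes were called in D4_DUX against D4, iPSC against D4 and D4 against MEF. The range was 6 to 9 in iPSC against MEF and in iPSC against D4_DUX, and 4 to 6 in D4_DUX against MEF. The number tested changed with the filter. A minimum of 5 FPKM left out Nr4a3, and with no filter Egr2 and Egr3 were tested too. Every count other than 8 in D4_DUX against D4 and in D4 against MEF came from these filters. Of all genes, 35.4% and 61.8% were called there in the main fit, and 13.9% and 29.9% with no filter. In D4_DUX against D4 and in D4 against MEF, all 135 alternative values of single genes kept their direction and their side of the threshold, and 0 of the values in any of the 6 comparisons reversed a call. Leaving out each library in turn left 8 genes called in both of these comparisons. With the replicate number as a block (replicate block), 8 genes were called in D4_DUX against D4, 8 in D4 against MEF and 7 in iPSC against MEF, and the block changed no call. The calls that depended on scaling were those of Ier3, Zfp36, Nr4a1 and Nr4a3 given with the results, and Ier3 in iPSC against D4_DUX, which was lower with median-ratio scaling (-0.20, limma adjusted p = 0.00786). The size of the Nr4a3 change grew where less is added to low values, in D4 against MEF to 3.01 with a pseudocount of 0.1 and 2.26 after rescaling to TPM. Depth limits Egr2, which had 9 to 64.4 fragments per library.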
